A study of Mus musculus with 6 samples.

Results

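Promoters of 37 genes of nucleotide synthesis and one-carbon metabolism were examined for CDK6 binding. The genes were chosen as a list and comprised 14 enzymes of purine synthesis and salvage, 7 of pyrimidine synthesis, 7 of deoxynucleotide supply and 9 of serine and one-carbon metabolism, out of 21951 protein-coding genes. Binding was measured by ChIP-seq against the HA tag in mouse BCR-ABL(p185)+ pre/pro-B cell lines, which all lacked endogenous Cdk6 (Cdk6-/-). The cells had been transduced with HA-tagged wildtype CDK6 (CDK6-WT, n = 2 libraries) or with the kinase-inactive, HA-tagged mutant CDK6-K43M (n = 2 libraries), and were crosslinked with DSG and formaldehyde. The tagged protein was thus exogenous in every library, and its amount was not measured in the peak lists, nor can the mutation be checked in them. The labels do not say whether libraries with the same variant came from separate cultures or lines, so that the spread between them may be technical. The 2 input libraries of the series had no values to analyse here. A promoter was the stretch from 2000 bp before to 200 bp after any start of a GENCODE M21 transcript of the gene (mm10), and it was called when at least 1 bp of a peak lay in it.

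Purines are built stepwise on ribose phosphate by Ppat, Gart, Pfas, Paics, Adsl and Atic, and the resulting IMP is converted to GMP by the IMP dehydrogenases and Gmps or towards AMP by Adss. Pyrimidines are made by the trifunctional enzyme Cad, the mitochondrial enzyme Dhodh and Umps, and thymidylate is added by Tyms. Ribonucleotide reductase turns ribonucleotides into DNA precursors, while serine hydroxymethyltransferases and the methylenetetrahydrofolate dehydrogenases feed carbon units from serine into purines and thymidylate. Rapidly dividing blood cells draw on these routes to copy their DNA.

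A promoter peak was present in at least 3 of the 4 lists at 31 of the 37 genes, or 83.8%, against 41.5% of all protein-coding genes. All 4 lists had one at 30 genes (81.1%, against 33.3% of all genes), and every listed gene had a peak in at least 2 lists, whereas 48.1% of all genes had none in any list. Per library, 35 and 31 of the genes had a peak with CDK6-WT (replicates 1 and 2), against 36 and 33 with CDK6-K43M. Of all protein-coding genes, 47.19% and 40.25% had one with CDK6-WT, against 48.67% and 39.49% with CDK6-K43M. Within replicate 2, the small difference between variants thus went the other way over all genes, and it was not tested. At least 3 lists had a peak at 12 of 14 purine genes, 5 of 7 pyrimidine genes, 6 of 7 genes of deoxynucleotide supply and 8 of 9 serine and one-carbon genes. These shares lay between 71.4% and 88.9%, and the groups of 7 to 14 genes are too small for these shares to be ordered.

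The base composition of the promoters moved with this count. Over 201 bp around the 5′ gene end (150 bp upstream to 50 bp downstream), the median CpG observed to expected ratio was 0.759 for the listed genes and 0.56 for all genes. Of the listed genes, 28 had a ratio of at least 0.6, and 25 of them (89.3%) had a peak in at least 3 lists, against 65.9% of all genes with such a ratio. The other 9 listed genes had 6 (66.7%) with a peak, against 19.7% of all genes below the ratio. The share was thus higher than that of all genes on either side of this limit. The ratios were not matched within either side, so the part of CpG content in this count was not tested. Nor was the part of other promoter properties or of transcription, which was not measured in these libraries.

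The share of called promoters was then followed over stricter thresholds. With a minimum −log10 q of 10 (q is the false discovery rate given by the peak caller), 16 of the 37 genes (43.2%) kept a peak in at least 3 lists, against 17.5% of all genes. At a minimum of 15 the shares were 13.5% and 7.23%, and at 20 they were 0% and 2.89%. The listed genes thus stood above all genes up to a minimum of 15, and none of them reached 20 in 3 lists.

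**Figure D1:**
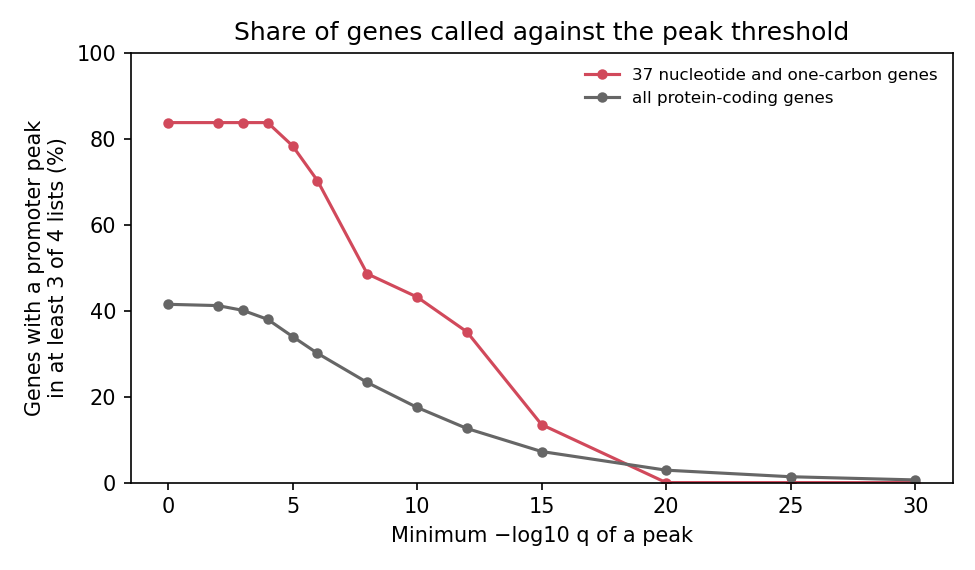
Share of genes (%) with a promoter peak in at least 3 of the 4 lists, plotted against the minimum −log10 q required of a peak, for the 37 nucleotide and one-carbon genes (red) and all protein-coding genes (grey). The red line starts at 83.8% and the grey line at 41.5%, and the lines cross between a minimum of 15 and 20, where the red line reaches 0%.

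Most of the strongest peaks lay close to a start of their gene. Of the 135 strongest promoter peaks of these genes over the 4 lists, 118 had their summit within 300 bp of a start of the gene itself, and the median distance was between 57 and 67 bp in each list. Some nearness was built in, since peaks were selected by overlap with windows around these starts. The same distances are not given for all genes. For 4 genes the highest summit was nearer to the start of another gene: Gart (Son), Paics (Ppat), Tk1 (Afmid) and Mthfd2 (Mob1a). Ppat and Paics, which encode the first enzyme of the purine route and the bifunctional enzyme of its middle steps, are transcribed in opposite directions from starts 142 bp apart and shared a single peak region (chr5:76951009-76952113). Their values are 1 measurement given under both names, and a peak at such a promoter cannot be assigned to either gene. Of the 33 genes whose own start was the nearest, 28 had a peak in at least 3 lists. The share of all genes under this restriction is not given, so this count cannot be set against the 41.5% above.

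Sequences under the highest summit are shown for promoters whose peaks differed between libraries, carried the highest ranks of their group or held matches of several motifs. They are written on the strand of the gene and cover, within 100 bp of the summit, the part that overlaps no annotated exon (reference sequence of GRCm38, mm10). Letters searched for, on both strands, were GCGCATGCG (NRF-1), CCGGAAGT (ETS), GGGGCGGGG (SP1), CCAAT (NFY), CACGTG (the E-box of the MYC family), TTTGGCGC, TTTCCCGC and TTTCGCGC (E2F), TGATGNAA (ATF4) and ACTACAATT (GFY). Capitals mark a match on either strand, and the matches in the exonic part of a window are not shown.

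The ribonucleotide reductase genes Rrm1 (chr7:102441581-102441694) and Rrm2 (chr12:24708051-24708240) carried CCAAT boxes, and Tyms (chr5:30073618-30073736), the thymidylate synthase gene, held an E-box directly beside the SP1 letters and an ETS match further on.
Rrm1: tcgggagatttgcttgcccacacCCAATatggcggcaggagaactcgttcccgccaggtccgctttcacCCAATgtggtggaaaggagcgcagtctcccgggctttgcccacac
Rrm2: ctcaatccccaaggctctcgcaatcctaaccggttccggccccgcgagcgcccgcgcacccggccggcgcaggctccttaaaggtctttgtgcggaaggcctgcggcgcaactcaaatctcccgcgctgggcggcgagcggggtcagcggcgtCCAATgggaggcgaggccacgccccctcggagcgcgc
Tyms: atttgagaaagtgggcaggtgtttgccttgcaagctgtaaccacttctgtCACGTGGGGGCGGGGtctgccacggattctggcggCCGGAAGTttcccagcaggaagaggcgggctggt

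Mthfd1l (chr10:3973717-3973917), the mitochondrial formate-producing synthetase gene, held the E-box and the ATF4 letters, in a stretch that the replicate 2 peaks did not reach. Mtr (chr13:12258114-12258291), the methionine synthase gene, held CCAAT boxes, and Prps1 (chrX:140456413-140456612), a phosphoribosyl pyrophosphate synthetase gene, held ATF4 and CCAAT letters.
Mthfd1l: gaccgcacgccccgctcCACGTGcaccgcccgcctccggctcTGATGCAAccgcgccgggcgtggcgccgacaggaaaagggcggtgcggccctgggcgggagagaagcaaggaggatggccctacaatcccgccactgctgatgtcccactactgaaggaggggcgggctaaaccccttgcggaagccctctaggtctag
Mtr: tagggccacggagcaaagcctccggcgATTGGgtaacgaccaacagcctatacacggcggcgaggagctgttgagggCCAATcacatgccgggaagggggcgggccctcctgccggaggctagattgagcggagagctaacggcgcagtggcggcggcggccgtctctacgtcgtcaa
Prps1: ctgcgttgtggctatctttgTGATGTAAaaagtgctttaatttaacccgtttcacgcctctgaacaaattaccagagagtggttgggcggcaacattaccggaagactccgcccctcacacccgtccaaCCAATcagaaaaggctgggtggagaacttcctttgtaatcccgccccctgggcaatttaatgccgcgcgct

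Impdh1 (chr6:29214402-29214602), which had the highest mean rank of the 30 genes with a peak in every list, is shown for its low CpG content, Shmt2 (chr10:127522144-127522287), the mitochondrial serine hydroxymethyltransferase gene, because replicate 2 had no peak there, and Ctps2 (chrX:162902381-162902413), a CTP synthase gene, because its peak was in the CDK6-K43M lists alone.
Impdh1: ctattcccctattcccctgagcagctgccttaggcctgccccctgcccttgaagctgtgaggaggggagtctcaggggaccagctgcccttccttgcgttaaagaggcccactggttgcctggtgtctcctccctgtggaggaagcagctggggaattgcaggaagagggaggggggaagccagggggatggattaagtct
Shmt2: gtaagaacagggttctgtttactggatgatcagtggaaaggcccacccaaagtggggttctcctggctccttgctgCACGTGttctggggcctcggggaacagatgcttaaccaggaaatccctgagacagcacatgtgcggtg
Ctps2: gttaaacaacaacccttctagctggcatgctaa

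Over the 37 windows of 201 bp, CCAAT was found at 12 genes (32.4%): Gart, Impdh2, Prps1, Ctps, Dtymk, Rrm1, Rrm2, Dck, Mthfd1, Mthfd2, Phgdh and Mtr. The same letters were in 24.8% of the highest summits of the 9100 protein-coding genes bound in at least 3 lists, and in 30.8% of the promoter windows of all genes. The E-box was at 7 genes (18.9%), namely Atic, Impdh2, Cad, Tyms, Shmt1, Shmt2 and Mthfd1l, against 8.97% of the bound genes and 6.02% of all promoters. E2F letters were at 4 genes (10.8%, against 3.21% and 1.69%), but Ppat and Paics share 1 window, and the others were Prps2 and Dck. SP1 letters were at Adss, Cad, Tyms and Rrm2b (10.8%, against 13.4% and 12.9%), ETS letters at Dhodh and Tyms (5.41%, against 9.6% and 4.27%), and ATF4 letters at Prps1 and Mthfd1l (5.41%, against 1.11% and 2.64%). The NRF-1 letters were in none of the 37 windows, against 4.18% of the bound genes and 1.91% of all promoters, and the GFY letters in none, against 0.802% and 0.401%. These counts describe letters in windows, and the numbers are too small to order the motifs among the groups of genes. The median GC content of the windows was 64.7%, against 64.2% at the bound genes, and the median CpG ratio was 0.84 against 0.854. The window of Impdh1 stood apart with a CpG ratio of 0.055, and that of Shmt2 followed with 0.392.

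To compare peaks between libraries, each gene's strongest promoter peak was ranked by its −log10 q within its own list, and the rank was expressed as a percentile (100 is the strongest peak of the list). Over the 30 genes with a peak in all 4 lists, the median of the mean percentile was 77.4, against 71.5 for all 7310 such genes. It was 80.1 for purine genes, 77.3 for pyrimidine genes, 75.8 for deoxynucleotide supply and 57.5 for serine and one-carbon genes. The one-carbon genes spread widely, from 35.8 (Phgdh) to 90.5 (Mthfd1l), so their lower median was not shared by all of them.

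**Figure D2:**
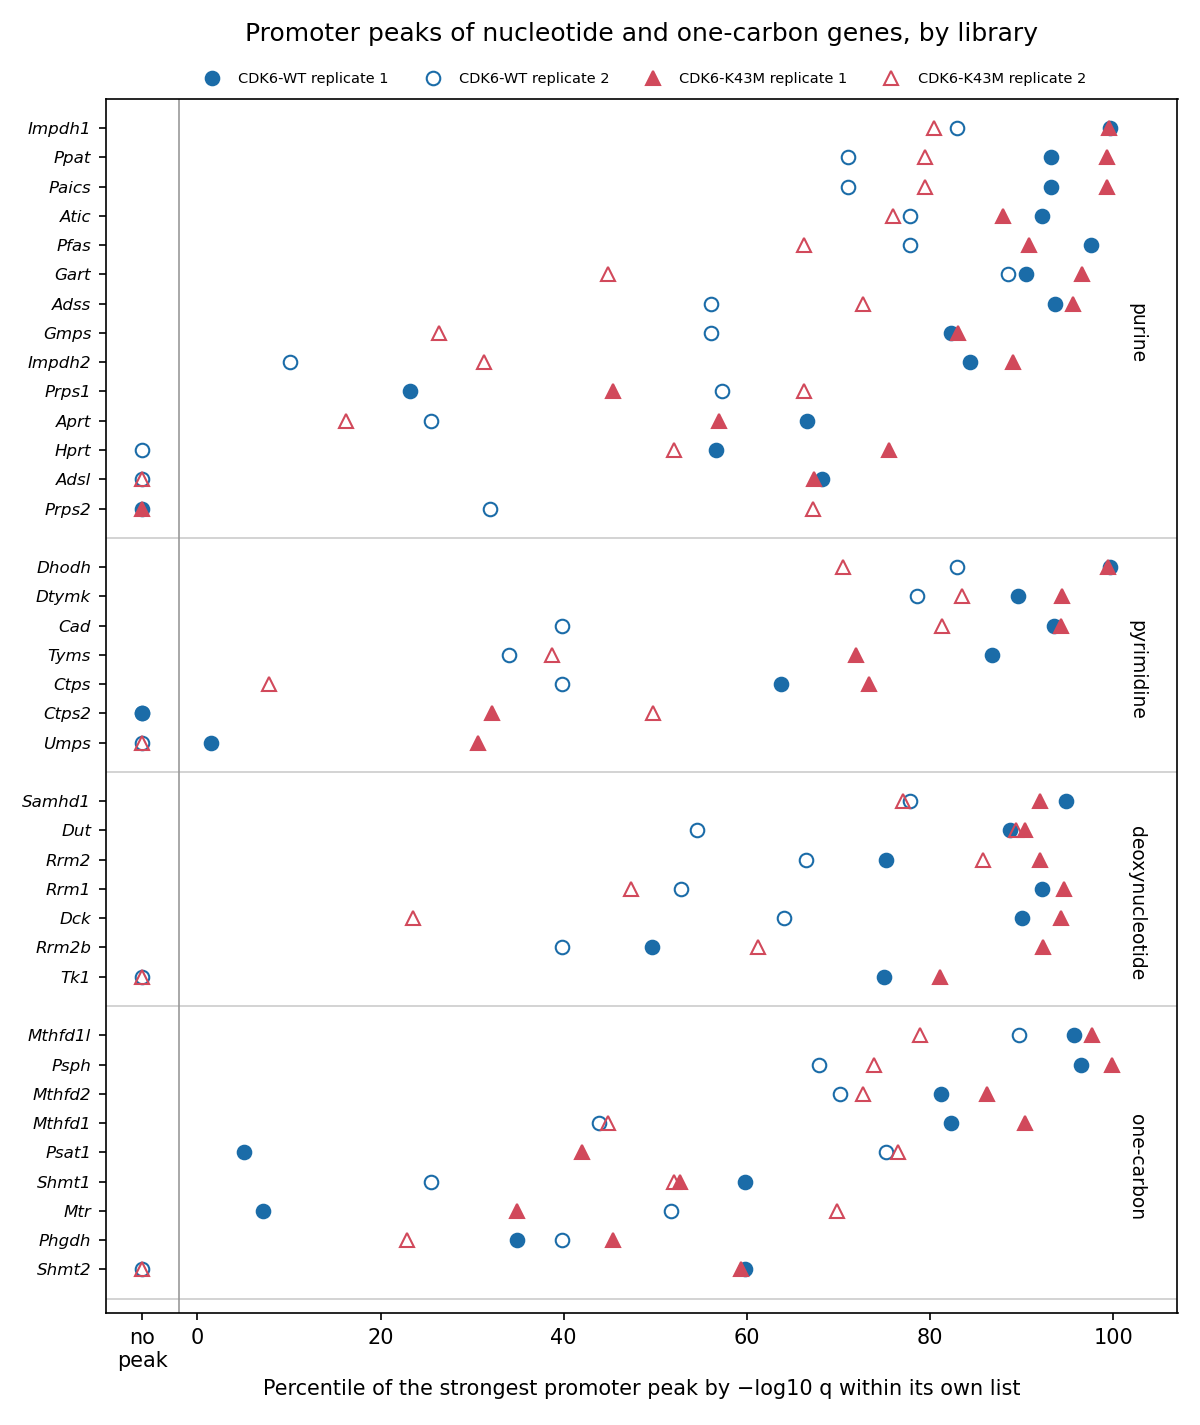
Percentile (x axis) of the strongest promoter peak by −log10 q within its own list, for each of the 37 genes (rows, by group). Circles are CDK6-WT and triangles CDK6-K43M, filled symbols are replicate 1 and open symbols replicate 2, and symbols left of the line mark a list with no promoter peak. Filled symbols lie to the right of open ones for most genes, and the exceptions include Prps1, Psat1 and Mtr.

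Among the purine genes, the top ranks belonged to Impdh1 and to the promoter of Ppat and Paics. Impdh1, an IMP dehydrogenase that commits IMP to guanine nucleotides, had percentiles of 99.6 and 83.0 in the CDK6-WT lists (replicates 1 and 2), against 99.6 and 80.4 in the CDK6-K43M lists. Its promoters held 3 peak regions present in all 4 lists, and in 3 lists the strongest summit lay 1427 to 1481 bp downstream of the nearest own start. In CDK6-WT replicate 2 the strongest summit lay in another of these regions, 156 bp from a start. That region stood at 72.9 and 83.0 for CDK6-WT and at 79.85 and 72.7 for CDK6-K43M. The remaining region, also close to a start, stood at 92.0 and 48.95 for CDK6-WT and at 86.2 and 68.9 for CDK6-K43M. The Ppat and Paics peak stood at 93.2 and 71.1 for CDK6-WT and at 99.4 and 79.4 for CDK6-K43M. Both promoters were in the upper part of every list, with the replicate 1 ranks above those of replicate 2.

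The other enzymes of the common route from Ppat to IMP followed closely. Atic, Pfas and Gart had mean percentiles of 83.5, 83.1 and 80.1. Gart was the most uneven of them, at 90.5 and 88.5 for CDK6-WT but 96.6 and 44.9 for CDK6-K43M. Its summits lay 852 to 886 bp before the nearest start of Gart and 41 to 75 bp from a start of the neighbouring gene Son, so that the peak cannot be assigned to Gart alone. Adss, which directs IMP towards AMP, had a mean percentile of 79.5, and Gmps, the GMP synthetase, one of 61.9.

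The exception within the common route was Adsl, adenylosuccinate lyase, which acts both there and on the way to AMP. Its promoter had a peak at the percentiles 68.2 and 67.4 in the replicate 1 lists of CDK6-WT and CDK6-K43M and none in either replicate 2 list. At its summits 25 and 34 reads were recovered in replicate 1, against backgrounds of 2.06 and 3.70 reads. Both replicate 1 peaks stood in the upper part of their lists, and the absence of a peak in replicate 2 was shared by the variants.

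The salvage genes ranked lower. Aprt, which recycles adenine, stood at 66.6 and 25.5 for CDK6-WT and at 56.9 and 16.2 for CDK6-K43M. Hprt, which recycles hypoxanthine and guanine, had a peak at 56.6 in CDK6-WT replicate 1, none in CDK6-WT replicate 2, and 75.6 and 52.0 in the CDK6-K43M lists. Impdh2, the paralogue of Impdh1, stood at 84.3 and 10.2 for CDK6-WT and at 89.0 and 31.3 for CDK6-K43M. In Aprt and Impdh2 the replicate 2 ranks were far below those of replicate 1 in both variants.

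The phosphoribosyl pyrophosphate synthetases, which make the activated ribose used in purine and pyrimidine synthesis, behaved differently. Prps1 ranked higher in replicate 2, with 23.3 and 57.3 for CDK6-WT against 45.4 and 66.2 for CDK6-K43M. Prps2 had a peak in the replicate 2 lists alone, at 31.95 for CDK6-WT against 67.2 for CDK6-K43M, and these lay in separate regions that did not overlap. A pattern of both replicate 2 lists and neither replicate 1 list was found at 1.28% of all genes.

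Hprt, Prps1, Prps2 and Ctps2 are the 4 X-linked genes of the list. A call in at least 3 lists was made at 2 of them, against 29 of the 33 autosomal genes. Among all protein-coding genes the shares were 17.3% on the X chromosome and 42.9% on autosomes. The number of X chromosomes in these lines was not given in the sources used here.

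In the pyrimidine route, Dhodh ranked highest. This mitochondrial dehydrogenase couples a middle step of the route to the respiratory chain. Its percentiles were 99.6 and 83.0 for CDK6-WT against 99.5 and 70.5 for CDK6-K43M. Dtymk, the thymidylate kinase, followed with 89.6 and 78.6 for CDK6-WT against 94.4 and 83.5 for CDK6-K43M. For Dtymk, the value of CDK6-WT replicate 2 came from a separate upstream region, 200 bp from a start of Ing5, and at its own start this list had a peak at 56.1.

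Cad, which carries out the first steps of the route, stood at 93.6 and 39.8 for CDK6-WT and at 94.3 and 81.3 for CDK6-K43M. Its replicate 1 ranks were thus nearly equal and its replicate 2 ranks far apart, and they rested on 16 (CDK6-WT) and 21 (CDK6-K43M) recovered reads. Tyms had 86.8 and 34.0 for CDK6-WT against 71.9 and 38.7 for CDK6-K43M, and Ctps, a CTP synthase, had 63.7 and 39.8 for CDK6-WT against 73.3 and 7.80 for CDK6-K43M. For both genes the variants overlapped and the replicate numbers did not.

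Umps, which completes UMP synthesis, had the lowest percentile of any listed gene. Its peak stood at percentiles of 1.49 (CDK6-WT) and 30.6 (CDK6-K43M) in replicate 1 and was absent from both replicate 2 lists. The recovered reads were 19 and 24 at local backgrounds of 6.19 and 4.93 reads. The part of the background in this low rank was not tested.

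Ctps2 had the only peak region in these promoters that was unique to a variant, that is, with a peak in both of its libraries and in neither library of the other. The region (chrX:162902097-162902432) stood at 32.1 and 49.8 in the CDK6-K43M lists, with 18 and 15 reads. Both CDK6-WT lists had no promoter peak, and a gene with this pattern made up 0.241% of all genes, against 0.082% for the opposite pattern, which no listed gene showed. The ranks were below 50 in both lists.

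In deoxynucleotide supply, Samhd1, which degrades deoxynucleotides, had the most even values, at 94.8 and 77.8 for CDK6-WT and at 92.0 and 77.0 for CDK6-K43M. Rrm1, the large subunit of ribonucleotide reductase, stood at 92.2 and 52.8 for CDK6-WT and at 94.6 and 47.4 for CDK6-K43M. Dck, the deoxycytidine kinase, stood at 90.1 and 64.1 for CDK6-WT and at 94.3 and 23.5 for CDK6-K43M. The variants overlapped at these genes, while replicate 1 lay above replicate 2. Tk1, the thymidine kinase gene that shares its promoter with Afmid, had peaks at 74.95 (CDK6-WT) and 81.1 (CDK6-K43M) in replicate 1 and none in replicate 2.

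The remaining genes of this group were the only listed genes at which both CDK6-K43M values exceeded both CDK6-WT values. They were 3 of the 30 genes with a peak in every list, against 6.77% of all such genes. The difference between these shares was not tested. Rrm2, the cell cycle-regulated small subunit of ribonucleotide reductase, had percentiles of 75.2 and 66.4 in the CDK6-WT lists, against 92.0 and 85.8 in the CDK6-K43M lists. The means were 70.8 ± 6.24 and 88.9 ± 4.40 (SD, n = 2 each), a difference of 18.1 percentile points (exact two-sided permutation p = 0.333). The recovered reads were 28 and 19 for CDK6-WT against 49 and 23 for CDK6-K43M, so the order was the same in reads within each replicate number. However, the CDK6-K43M replicate 2 peak (chr12:24708562-24708901) did not overlap the replicate 1 peaks, which ended at 24708374 (CDK6-WT) and 24708363 (CDK6-K43M). The wide CDK6-WT replicate 2 peak (24707783-24709033) overlapped all of them. The CDK6-K43M value of replicate 2 thus came from another stretch of this region.

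Rrm2b, the p53-inducible small subunit, had 49.7 and 39.8 for CDK6-WT against 92.3 and 61.2 for CDK6-K43M. The difference of 32.02 points had the same exact permutation p of 0.333 (means 44.8 ± 6.96 and 76.8 ± 21.99, SD, n = 2 each). In replicate 1, 26 reads stood on a background of 4.13 in CDK6-WT and 48 reads on a background of 2.22 in CDK6-K43M, so both the reads and the background differed. In replicate 2 there were 16 and 17 reads on backgrounds of 2.18 and 1.98, so the raw reads were nearly equal there. Raw reads are not scaled between libraries, and the medians over all summits of these lists were 18 (CDK6-WT) and 15 (CDK6-K43M).

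Dut, the dUTPase that keeps uracil out of DNA, had 88.7 and 54.6 for CDK6-WT against 90.3 and 89.4 for CDK6-K43M, a difference of 18.2 points (exact permutation p = 0.333). The CDK6-K43M value of replicate 1 exceeded that of CDK6-WT by 1.60 points, so the difference came mainly from replicate 2. However, the CDK6-K43M replicate 2 peak (chr2:125247144-125247400) had its summit at 125247257. It ended before the summits of the other lists, at 125247561 and 125247611 (CDK6-WT) and 125247628 (CDK6-K43M replicate 1). The replicate 2 values thus came from different stretches of this region. A p of 0.33 is the smallest that 2 libraries against 2 allow, and none of these differences could pass a threshold of 0.05.

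Among the serine and one-carbon genes, the highest ranks were those of Mthfd1l and of Psph, the phosphatase of the last step of serine synthesis. Mthfd1l stood at 95.7 and 89.7 for CDK6-WT and at 97.7 and 78.9 for CDK6-K43M. Its replicate 2 peaks ended at 3973322 (CDK6-WT) and 3973341 (CDK6-K43M). They did not reach the replicate 1 summits, at 3973858 (CDK6-WT) and 3973817 (CDK6-K43M), around which the sequence above was taken. Psph stood at 96.5 and 67.9 for CDK6-WT and at 99.8 and 73.9 for CDK6-K43M, and its 97 reads in CDK6-K43M replicate 1 were the most at any listed gene. Mthfd2, the mitochondrial dehydrogenase gene whose highest peak lay beside the start of Mob1a, had 81.2 and 70.2 for CDK6-WT against 86.2 and 72.7 for CDK6-K43M. The value of CDK6-WT replicate 1 came from another region, at a downstream start of Mthfd2, and at the Mob1a side this list had 74.0. Mthfd1, its cytosolic trifunctional counterpart, had a mean percentile of 65.3.

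Phgdh, which takes the first step of serine synthesis, had the lowest mean rank of all genes with peaks in 4 lists, at 34.9 and 39.8 for CDK6-WT against 45.4 and 22.9 for CDK6-K43M. Its strongest peaks lay in more than 1 region, and no list had more than 19 reads there. Psat1, which takes the next step, stood at 5.05 and 75.1 for CDK6-WT and at 42.0 and 76.5 for CDK6-K43M. It thus ranked higher in replicate 2 in both variants, with 26 and 22 reads there against 14 and 20 in replicate 1.

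The serine hydroxymethyltransferases had modest peaks. Shmt1, the cytosolic enzyme, stood at 59.8 and 25.5 for CDK6-WT and at 52.7 and 52.0 for CDK6-K43M. The last value came from a region found in that list alone, and in the region of the other values the list had 36.2. Shmt2 had peaks at 59.8 (CDK6-WT) and 59.3 (CDK6-K43M) in replicate 1 and none in replicate 2. Its strongest summits in the replicate 1 lists lay in separate regions, although each region had a peak in both lists.

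Mtr, which joins the folate and methionine cycles, stood at 7.13 and 51.7 for CDK6-WT and at 34.9 and 69.9 for CDK6-K43M. As at Prps1 and Psat1, replicate 2 was higher. At this promoter the local background was 4.13 and 7.39 reads in replicate 1 (CDK6-WT and CDK6-K43M) and 1.97 and 1.79 in replicate 2. The part of the background in this order was not tested.

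The variants were then compared over all genes of the list. The median difference of CDK6-K43M minus CDK6-WT over the 30 genes with a peak in all lists was 4.15 percentile points (quartiles -4.92 and 12.1), against 0.546 for all 7310 such genes. It was 3.81 within replicate 1 and 1.91 within replicate 2. By group it was -1.29 for purine genes, -5.10 for pyrimidine genes, 8.29 for deoxynucleotide supply and 4.61 for serine and one-carbon genes. The SD of the member median percentile between replicates of the same variant was 17.8 points. This SD holds the difference between replicate numbers, which is balanced here, since each variant has 1 library of each number. It is thus not the spread of the differences between variants, and whether these exceed their own spread was not tested. The median was -9.53 without CDK6-WT replicate 2 and -9.24 without CDK6-K43M replicate 1, but then 1 variant is left with a single replicate number, so these values also hold the difference between the numbers. With 2 libraries each, no test of this difference could give a p below 0.33.

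In single genes, CDK6-K43M exceeded CDK6-WT without overlap at 3 of the 30 genes (Rrm2, Rrm2b and Dut), against 6.77% of all genes, and CDK6-WT exceeded CDK6-K43M at 0, against 3.61%. CDK6-K43M was higher within both replicate numbers at 15 genes, against 29.1% of all genes, and CDK6-WT was higher within both at 6, against 21.8%. The genes with the higher CDK6-K43M rank in both included Rrm2, Rrm2b, Mtr, Prps1, Psat1 and Impdh2, and those with the higher CDK6-WT rank included Pfas, Aprt and Atic. Gart, Dck, Ctps and Gmps had a higher CDK6-K43M rank in replicate 1 and a lower one in replicate 2, by -29.72 to -43.64 points.

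**Figure D3:**
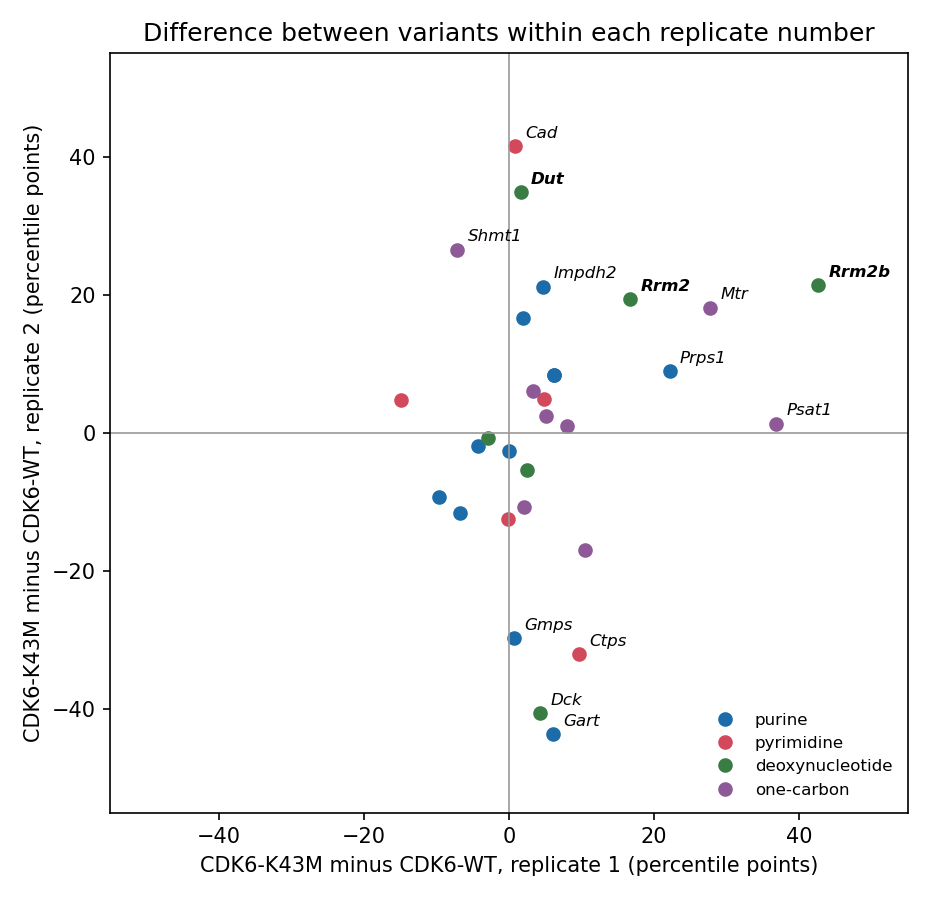
Difference of CDK6-K43M minus CDK6-WT in the percentile of the strongest promoter peak, within replicate 1 (x axis) and within replicate 2 (y axis), in percentile points, for the 30 genes with a peak in all 4 lists, coloured by group. Genes whose variants did not overlap (Rrm2, Rrm2b and Dut) are in bold, and Gart and Dck lie far below 0 in replicate 2 although they lie slightly above 0 in replicate 1.

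The libraries differed more by replicate number than by variant. The median difference of replicate 1 minus replicate 2 was 21.02 percentile points, against 20.8 for all genes. Both replicate 1 ranks exceeded both replicate 2 ranks at 23 of the 30 genes, against 69.4% of all genes. The opposite held at 3 (Prps1, Psat1 and Mtr), against 10.1%. A peak in both replicate 1 lists and neither replicate 2 list was found at Adsl, Umps, Tk1 and Shmt2, or 4 of 37, against 5.69% of all genes. The difference between these shares was not tested, and the labels do not say what the number marks.

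The number of reads behind a peak differed likewise. Reads at a summit were recovered from the fold enrichment and the p-value of each peak, as the lists hold no totals. At the strongest promoter summits of the listed genes, the median was 33 reads (13 to 66) in CDK6-WT replicate 1 and 43.5 (18 to 97) in CDK6-K43M replicate 1. It was 19 (12 to 29) and 18 (9 to 26) in the replicate 2 lists of CDK6-WT and CDK6-K43M. The median background was between 1.63 and 2.46 reads in all lists. Tied ranks were common in every list, since 97.1% to 98.6% of the peaks had the −log10 q of another peak of their list. The steps were coarser in replicate 2, with 1492 (CDK6-WT) and 1551 (CDK6-K43M) distinct −log10 q values. Replicate 1 had 2392 (CDK6-WT) and 2425 (CDK6-K43M).

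**Figure D4:**
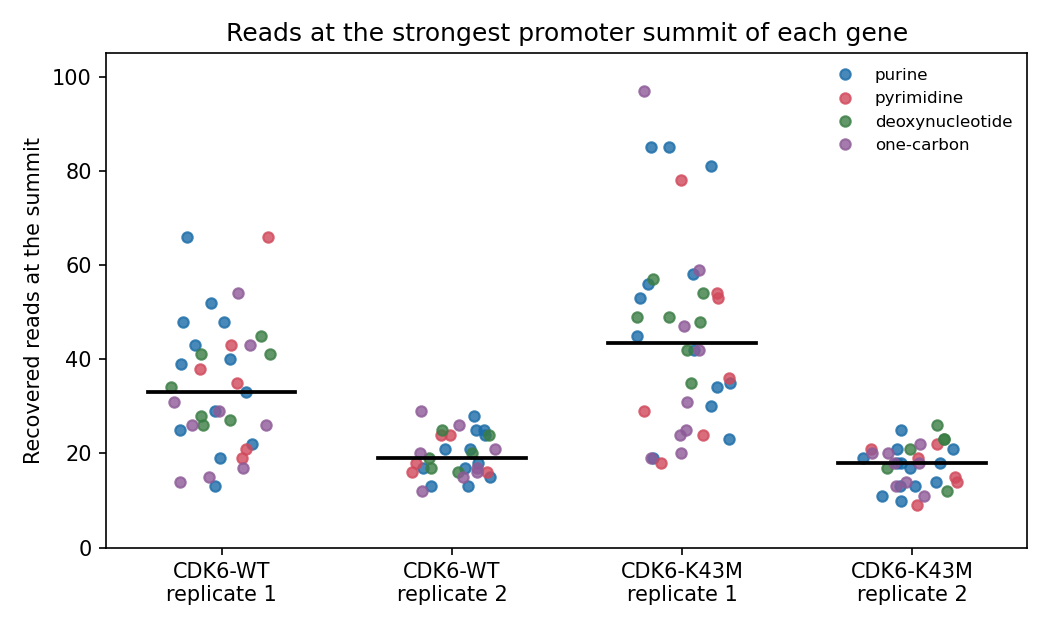
Reads recovered at the summit of the strongest promoter peak of each listed gene (y axis, reads), by library, coloured by group, with the median as a black line. The medians of 33 and 43.5 reads in the replicate 1 lists stand above those of 19 and 18 in the replicate 2 lists, and no gene exceeded 29 reads in replicate 2.

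Other genes of the same pathways, from a second list of 54, were called as follows. At least 3 lists had a peak at 30 of them (55.6%, against 41.5% of all genes), all 4 lists at 27 (50%), and no list at 16. The share in at least 3 lists was 11 of 18 for the purine genes, 8 of 15 for pyrimidine and deoxynucleotide genes and 11 of 21 for one-carbon genes. A CpG ratio of at least 0.6 was present at 50% of this list, against 75.7% of the 37 genes, and 77.8% of its genes with such a ratio and 33.3% of those below it had a peak in at least 3 lists. Without a peak were Ada, Ampd3, Ak1 and Gmpr of purine metabolism, Cda, Dctd, Upp1, Tymp and Dpyd of pyrimidine metabolism, and Mthfs, Ggh, Gldc, Amt, Cbs, Dmgdh and Ftcd of folate, glycine and sulphur amino acid metabolism. Ada encodes adenosine deaminase, and Dpyd the first enzyme of pyrimidine breakdown. The highest mean percentiles were those of Nme1 and Sardh (95.8 each), a nucleoside diphosphate kinase and the sarcosine dehydrogenase, followed by Fpgs (86.4), which retains folates in cells, and by Mat2a (84.3) and Mat2b (83.9), the subunits of methionine adenosyltransferase. Among the 27 genes of this second list with a peak in all 4 lists, CDK6-WT exceeded CDK6-K43M without overlap at 1. The share of all such protein-coding genes was 3.61%. The gene was Slc25a32, a mitochondrial folate carrier, whose summits were nearest to a start of Dcaf13 except in CDK6-K43M replicate 2. The opposite was found at 0, against 6.77% of all such genes.

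The cell type of the libraries was checked by marker genes. The B-lineage genes Pax5, Ebf1, Cd79a, Cd79b, Vpreb1 and Igll1 had a promoter peak in all 4 lists, and Rag1 had one in both replicate 2 lists. The summits at Vpreb1 were nearest to a start of Top3b and those at Rag1 to a start of B230118H07Rik, so these peaks cannot be assigned to the B-lineage genes alone. Of 6 genes of other lineages, Cd3e, Cd3g, Mpo and Alb had none, Cdh5 had one in 1 list, and Lyz2 had one in 3 lists at percentiles of at most 36.3. A peak at a promoter does not measure transcription. In total 61 peak regions lay in the promoters of the 37 genes, of which 38 were in 3 or 4 lists, 9 in both replicate 1 lists and neither replicate 2 list, 1 unique to CDK6-K43M and 0 unique to CDK6-WT. The shares over all 56748 merged regions are not given here, so these counts only describe the listed promoters.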

How the data were processed

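As the study and the labels describe, the authors used Trimmomatic 0.36 for trimming and bwa-mem 0.7.15 for alignment to mm10 (GENCODE M13), removed blacklisted regions with bedtools and multimapping or low-quality reads with SAMtools 1.3.1, and called peaks in each library separately with MACS2 2.1.0 at default settings, without pooling replicates. The deposited lists hold, for every peak, the fold (ratio) of summit signal to local background, −log10 values of its p-value and q-value, a score derived from the latter and the place of the summit. The authors' lists held 35189 and 34729 peaks (CDK6-WT) and 39797 and 37304 peaks (CDK6-K43M).

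Promoters were taken from GENCODE M21, as the M13 annotation was not used here. Both are on GRCm38. The strongest promoter peak of a gene in a list was that with the highest −log10 q, and its percentile is the average rank within the list. Overlapping peaks (minimum 1 bp) of the 4 lists gave 56748 merged regions. Reads at the summit and local background were solved from fold and p-value, which returned whole reads for 100% of the peaks within 0.002 of the deposited −log10 p, and the method was tested on simulated lists. Read totals per library are not in the lists. Libraries were grouped by the variant and replicate number in their titles. Differences between variants were compared by exact two-sided permutation over the 4 libraries. All 37 genes matched a gene model and none was filtered on low values. Per-library values are given for genes without a peak in every list, for the 3 highest and 3 lowest of each group by mean percentile, for genes whose variants did not overlap, and for the gene with a variant-unique region, and in addition for Gart and Psat1, chosen after their values were seen. Of the second list, genes with no peak and the 5 highest are named. The genes, groups, second list and motifs were chosen with earlier results of these data known. The split by CpG ratio was added after seeing the data. Reference sequence was that of NCBI RefSeq for GRCm38. Python 3.11.15, numpy 2.4.6, pandas 2.3.3, scipy 1.17.1, pysam 0.24.0 and matplotlib 3.10.9 were used. Alternatives were other thresholds, list lengths, promoter windows and overlaps, ranks by fold, a block by replicate number, and omission of each library. Some genes of the second list and of the marker list are not reported by name here.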

Additional observations from a re-analysis of the deposited data

How the results depend on the processing

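Across 10 results, 99 alternative values were computed, of which 84 stayed within 1.5 times the count or within the spread between replicates, 15 moved further and 0 were counted as reversed. A change of sign within that spread was counted as staying. This was the case for the median difference between variants, 4.15 points, without CDK6-WT replicate 2 (-9.53) and without CDK6-K43M replicate 1 (-9.24). The restrictions to genes nearest to their own summit and to genes with peaks in 1 merged region were chosen after seeing the data. When a −log10 q of at least 10 was required, or the 10000 top peaks of each list were kept, fewer peaks enter, and the genes with a promoter peak in at least 3 lists fell from 31 to 16 and 15. The corresponding counts were 7 and 7 for purine genes, 3 and 3 for pyrimidine genes, 3 and 3 for deoxynucleotide supply and 3 and 2 for serine and one-carbon genes. Genes in the replicate 1 lists alone numbered 12 and 7 at these settings, against 4. Of all genes, 17.5% had a peak in at least 3 lists at a minimum −log10 q of 10. The other alternative counts of this paragraph stand without a share of all genes, so they show only how the counts depend on the setting. Counted with the deoxynucleotide genes, 11 pyrimidine genes had a peak in at least 3 lists. With a library left out, and a peak required in 2 of the remaining lists, the count was 32 to 36, and the median difference between variants was -9.53 to 11.2 points, a range that also holds the difference between replicate numbers, which leaving out a library unbalances.

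A replicate block was also applied, pairing libraries by number. The labels do not say what the number marks, and 2 pairs cannot establish a pairing, although deviations from the variant means correlated over 7310 genes (r = 0.573). In the block, CDK6-K43M was higher within both numbers at 15 genes and CDK6-WT at 6, against 3 and 0 without overlap, since the requirement is weaker. The median difference was 3.81 points within replicate 1 and 1.91 within replicate 2, and their mean per gene equals the difference of the variant means by construction. The lists hold no totals, and with medians of 18 and 19 reads at replicate 2 summits, the absence of a peak there does not show the absence of binding.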
